A study of Rattus norvegicus with 20 samples.

Results

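The genes described here are 9 genes of oligodendrocytes and myelin in rat brain, namely Mbp, Mobp, Mag, Mog, Cnp, Fa2h, Ugt8, Sox10 and Myrf. They were taken by name, with each probe set that the array annotation gives to 1 of them alone. That gave 15 probe sets of 31042 that are not controls, and 9 genes of 14217 named on the array. A probe set is a group of short probes for 1 transcript, and 14 of the 15 passed a filter on dim signal that left 18625 for testing. The other, 1368857_at for Ugt8, had a mean log2 signal of 0.82 over the 20 arrays and was not tested. Where a gene had several probe sets it is represented by the one of highest mean signal, and all of them are given below.

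Myelin is the lipid-rich sheath that oligodendrocytes, the myelinating glia of the central nervous system, wrap around axons. Mbp, Mobp, Mag, Mog and Cnp encode proteins of the sheath, Fa2h and Ugt8 encode enzymes that make its galactolipids, and Sox10 and Myrf are transcription factors that switch on myelin genes. In the brain these transcripts are dense in white matter tracts and sparser in grey matter. Fewer oligodendrocytes and less RNA per oligodendrocyte cannot be told apart in such samples.

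The tissue came from 20 male Sprague Dawley rats, aged 20 weeks and weighing 250 to 300 g. Of these, 10 breathed oxygen carrying 2% isoflurane, a volatile anaesthetic, at 1.4 MAC (the unit of anaesthetic potency) for 15 minutes. The other 10 breathed pure oxygen for the same time, and in both groups the brain was taken 6 hours later and the cortex was dissected. Each rat gave 1 Affymetrix array, so the replicates are animals. The labels name no genetic change in either group. The submitters gave the profiles the purpose of building gene networks after anaesthesia.

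All arrays were labelled brain cortex, but the markers of brain regions parted them into sets within both groups. On 11 arrays Pcp2, a gene of cerebellar Purkinje cells, had a log2 signal above 12, and on 9 it lay below. The Pcp2-high set held isoflurane arrays 1, 3, 7, 8 and 9 (Pcp2 signal 12846 to 18438) and oxygen arrays 5 to 10 (12436 to 16256). The Pcp2-low set held isoflurane arrays 2, 4, 5, 6 and 10 (22 to 1632) and oxygen arrays 1 to 4 (198 to 439). Within it the highest signal, 1632, was that of isoflurane array 10, against 22 to 61 on isoflurane arrays 2, 4, 5 and 6. Pcp2 itself made the split and is left out of the next count. Of the 11 other tested markers of cerebellar neurons 10 were higher in the Pcp2-high set in isoflurane and in oxygen rats. Pcp4 was the exception in both. Of 11 markers of cortical neurons 8 were lower and 0 higher in isoflurane rats, and 9 were lower and 1 higher in oxygen rats. Over all genes 23.6% were lower and 30.6% higher in isoflurane rats, and 22% were lower and 24.2% higher in oxygen rats. The label of cortex goes against these markers on the 11 arrays, and the sets are called by Pcp2 below. Isoflurane arrays 2, 4, 5 and 6 stood apart from the rest: their 3'/5' signal ratio for Gapdh and beta-actin control probe sets, a measure of RNA integrity, was 1.28 to 1.59 on the log2 scale, against 0.75 on isoflurane array 10 and 0.76 to 1.23 on the Pcp2-low oxygen arrays. Results that rest on those 4 arrays are given with and without them.

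Isoflurane rats had less Fa2h, Sox10 and Myrf signal than oxygen rats, and the 5 myelin sheath proteins did not pass the test in either direction. Over all 20 arrays, with the array set as a term, limma's moderated test found 3 of the 9 genes lower at a Benjamini-Hochberg adjusted p under 0.05 and 0 higher. Over all genes tested 7.73% passed, 5.87% lower and 1.86% higher, and by probe sets 7.37% passed. The median log2 change of the 9 genes was -0.27, against 0.00 over all probe sets tested. All 3 calls were lost without isoflurane arrays 2, 4, 5 and 6, when 0 probe sets of the whole table passed by limma. At an unadjusted p under 0.05 there were then 3016 probe sets, or 16.2%, and 4 of the 9 genes (Cnp, Fa2h, Sox10 and Myrf).

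Fa2h encodes fatty acid 2-hydroxylase, which makes the hydroxylated fatty acids of myelin galactolipids. In the Pcp2-high set its log2 signal was 9.47, 9.59, 9.73, 9.58 and 9.92 on isoflurane arrays 1, 3, 7, 8 and 9, against a lowest value of 10.06, a median of 10.21 and a highest of 10.56 on the 6 oxygen arrays. In the Pcp2-low set it was 9.83, 9.61, 9.63, 9.91 and 10.33 on isoflurane arrays 2, 4, 5, 6 and 10, against 10.48, 10.59, 10.52 and 10.51 on oxygen arrays 1 to 4. In each set every isoflurane array lay below every oxygen array. Such a gap with isoflurane lower was seen for 0.58% of probe sets in the Pcp2-high set and for 6.52% in the Pcp2-low set. Across the sets, isoflurane array 10 (10.33) lay above every Pcp2-high oxygen array other than oxygen array 8 (10.56). Over all 20 arrays the log2 change was -0.62 ± 0.09 (SE), a fold of 0.649, with a limma adjusted p of 0.002101. The call was kept when any 1 array was left out, with adjusted p between 0.0001035 and 0.008245. Without the 4 arrays that stood apart the change was -0.50, with an adjusted p of 0.1124.

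Sox10 is a transcription factor of the oligodendrocyte lineage that switches on myelin genes. In the Pcp2-high set its log2 signal was 8.29, 7.94, 8.16, 8.25 and 9.10 on isoflurane arrays 1, 3, 7, 8 and 9, against a lowest value of 8.32, a median of 8.81 and a highest of 9.49 on the 6 oxygen arrays. In the Pcp2-low set it was 9.08, 8.71, 8.66, 8.97 and 9.07 on isoflurane arrays 2, 4, 5, 6 and 10, against 9.48, 9.87, 9.61 and 10.27 on oxygen arrays 1 to 4. The groups overlapped in the Pcp2-high set through isoflurane array 9 alone. They did not overlap in the Pcp2-low set, with isoflurane lower, as for 6.52% of all probe sets. The log2 change over all 20 arrays was -0.70 ± 0.16, with an adjusted p of 0.0179, and it passed with any 1 array left out (adjusted p 0.001156 to 0.04406). Without the 4 arrays the change was -0.57 and the adjusted p 0.2016.

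Myrf, the factor that starts and keeps up myelin gene expression downstream of Sox10 in mouse oligodendrocytes, moved with Sox10. Its log2 signal was 8.63, 8.13, 8.88, 8.41 and 9.27 on the Pcp2-high isoflurane arrays, against a lowest value of 8.84, a median of 9.02 and a highest of 9.83 on the Pcp2-high oxygen arrays. In the Pcp2-low set it was 9.68, 8.99, 9.20, 9.65 and 9.89 on isoflurane arrays 2, 4, 5, 6 and 10, against 9.84, 10.13, 10.23 and 10.45 on oxygen arrays 1 to 4. Both sets overlapped, the Pcp2-low set through isoflurane array 10 alone. The log2 change was -0.59 ± 0.15, with an adjusted p of 0.02837, and 9 of 10 isoflurane arrays lay below the oxygen mean of their own set. The call was lost when oxygen array 2, 3 or 4 or isoflurane array 3, 4, 5 or 8 was left out, with adjusted p between 0.05079 and 0.0658. Without the 4 arrays the change was -0.46 and the adjusted p 0.2295.

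**Figure D1:**
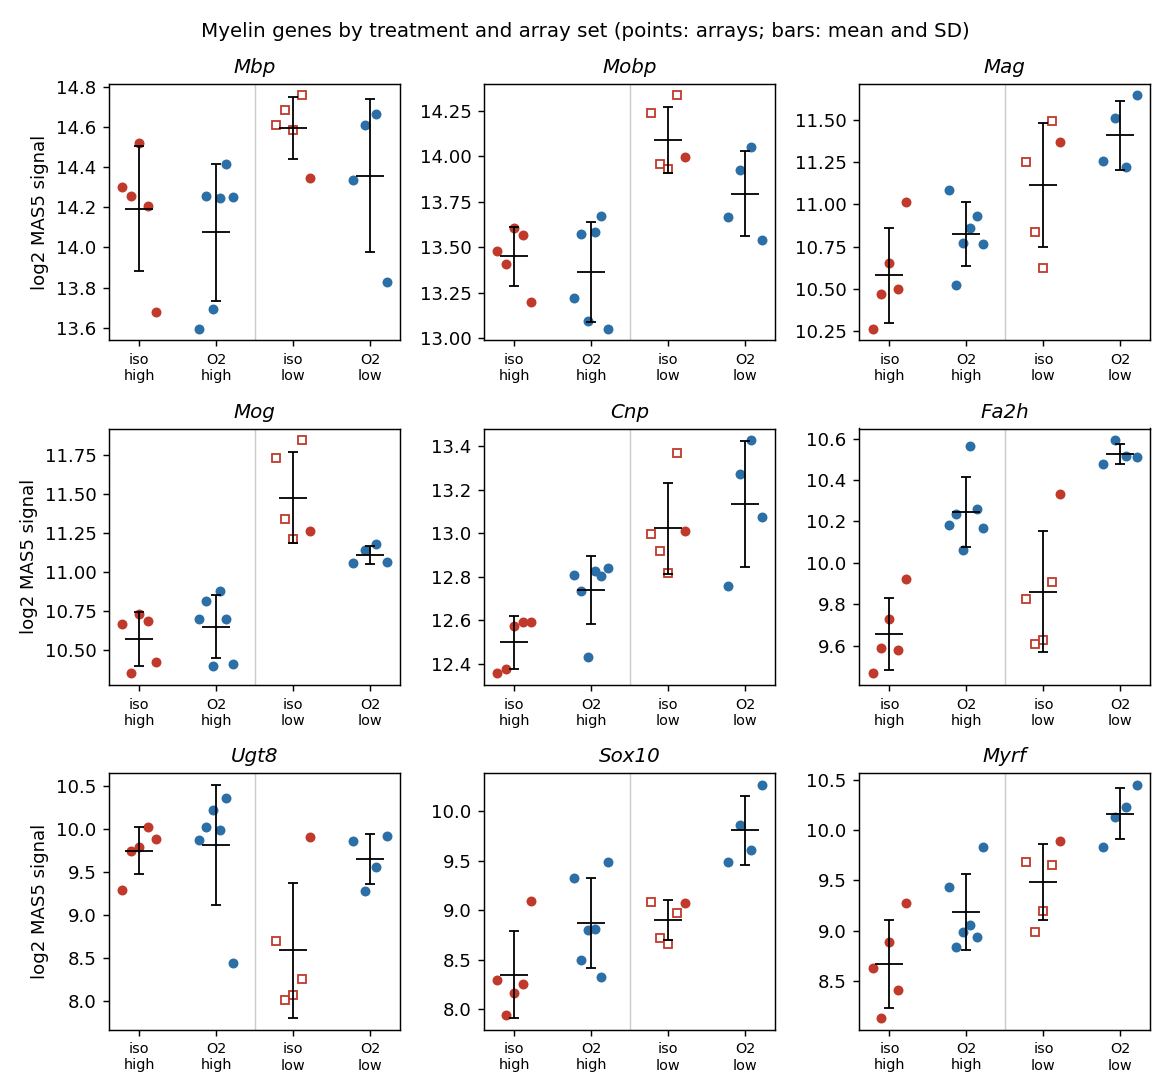
Log2 signal of the probe set of highest mean signal of each of the 9 genes on each of the 20 arrays, by array set and group, with isoflurane left of oxygen; bars are group means and open squares mark isoflurane arrays 2, 4, 5 and 6. Fa2h shows all isoflurane arrays below all oxygen arrays of the same set, and the 4 squares lie below the other arrays of their set for Ugt8.

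Ugt8 encodes the galactosyltransferase that makes galactosylceramide, a later step than the fatty acid 2-hydroxylation catalysed by Fa2h. Its log2 signal in the Pcp2-low set was 8.70, 8.01, 8.06 and 8.25 on isoflurane arrays 2, 4, 5 and 6 and 9.91 on isoflurane array 10, against 9.86, 9.28, 9.56 and 9.92 on oxygen arrays 1 to 4. In the Pcp2-high set it was 9.29, 9.75, 9.79, 10.02 and 9.88 on isoflurane arrays 1, 3, 7, 8 and 9, against a lowest value of 8.44, a median of 10.01 and a highest of 10.36 on the 6 oxygen arrays. The low values were those of the 4 arrays with a high 3'/5' ratio and of oxygen array 10, whose ratio was 0.93. Oxygen array 2, with the highest ratio of the oxygen arrays (1.23), read 9.28. Over all 20 arrays the log2 change was -0.52 ± 0.26 with an adjusted p of 0.2001, and without the 4 arrays it was 0.00 with an adjusted p of 0.9957. With the 3'/5' ratio as a covariate the change of Ugt8 was -0.36 with an adjusted p of 0.1977. In that fit Fa2h was at -0.59 (adjusted p 0.0025), Sox10 at -0.71 (0.01515) and Myrf at -0.59 (0.02853). The 4 arrays with the highest ratios were all Pcp2-low isoflurane arrays, so the fit cannot fully separate the ratio from isoflurane. The part of RNA integrity in these changes was not tested.

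The myelin sheath proteins gave a mixed picture. Cnp, an enzyme of non-compact myelin, had a log2 change of -0.18 ± 0.08 (adjusted p 0.1693), and 9 of 10 isoflurane arrays lay below the oxygen mean of their set. Mag, a cell adhesion protein of the innermost wrap, had -0.27 ± 0.11 (adjusted p 0.1337), with 8 of 10 arrays below, and of the 20 fits with 1 array left out it passed in the one without isoflurane array 9 (-0.32, adjusted p 0.04456). Mog, a protein of the outermost surface of the sheath, had 0.12 ± 0.10 (adjusted p 0.4581), with 2 of 10 below. Neither these nor the next pair of genes passed over all 20 arrays. Mbp, which compacts the cytoplasmic faces of the membrane, had 0.17 ± 0.13 (adjusted p 0.3963), with 2 of 10 below, and the change turned to -0.0033 under quantile normalization. Mobp, an abundant small basic protein of compact myelin, had 0.18 ± 0.10 (adjusted p 0.231), with 1 of 10 below. These values are those of the probe set of highest mean signal. Mobp 1368263_a_at went the other way at -0.10 ± 0.10 (limma adjusted p 0.5308), with 7 of 10 below. Mobp 1370500_a_at had 0.25 ± 0.20 (adjusted p 0.436). Mbp 1387341_a_at had -0.01 (adjusted p 0.9756) and Mbp 1383479_at had 0.22 (adjusted p 0.4337). Cnp 1370693_a_at had -0.26 (adjusted p 0.1884), with 7 of 10 below.

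In the Pcp2-low set the changes of Mog and Mobp had the opposite sign to those of Fa2h and Sox10, but neither passed the test. The log2 signal of Mog was 11.73, 11.34, 11.21, 11.85 and 11.26 on isoflurane arrays 2, 4, 5, 6 and 10, against 11.06, 11.14, 11.18 and 11.06 on oxygen arrays 1 to 4. The groups did not overlap, with isoflurane higher, as for 6.7% of all probe sets, and the change of 0.37 ± 0.14 did not pass in the fit of that set (adjusted p 0.08325). Mobp read 14.23, 13.96, 13.93, 14.33 and 14.00 on the same isoflurane arrays, against 13.67, 13.92, 14.05 and 13.54 on the oxygen arrays, and the groups overlapped through oxygen array 3. Its change there was 0.30 ± 0.13 (adjusted p 0.1283). Isoflurane array 10 is the only one of these isoflurane arrays outside the 4 that stood apart. It read 11.26 for Mog, against at most 11.18 on oxygen arrays, and 14.00 for Mobp, within the oxygen range. Centring arrays on their medians moved the median of all probe sets in this set to -0.21. In the Pcp2-high set Mog had -0.08 (adjusted p 0.7502) and Mobp 0.09 (adjusted p 0.7658), with overlapping groups.

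In fits of each set alone the same genes were tested again. In the Pcp2-low set limma called 3 of the 9 genes lower and 0 higher, and over all genes 9.04% were lower and 6.22% higher. Fa2h had a log2 change of -0.66 ± 0.14 (adjusted p 0.01313), Sox10 -0.91 ± 0.17 (adjusted p 0.009649) and Myrf -0.68 ± 0.19 (adjusted p 0.03257). Ugt8 had -1.07 ± 0.34 (adjusted p 0.05135), and -1.40 without isoflurane array 10, with an adjusted p of 0.0002677. The fit without that array gave 6266 calls over the whole table, in place of 3469. Leaving out the 4 arrays leaves 1 isoflurane array in this set, assumed to vary like the oxygen arrays. Then 0 of the 9 genes and 0 of all probe sets passed by limma, with 1 gene (Sox10) and 876 probe sets at an unadjusted p under 0.05. The Myrf call was also lost when isoflurane array 2, 4, 5 or 6 or oxygen array 2, 3 or 4 was left out, with values of -0.73 to -0.56. Arrays centred on their medians, or quantile normalized, gave 4 genes lower in this set, Ugt8 being the other (-1.28, adjusted p 0.0168, and -1.09, adjusted p 0.04372).

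In the Pcp2-high set, which holds none of the 4 arrays, limma called 0 of the 9 genes and 0 of all probe sets, a share of 0%. At an unadjusted p under 0.05 there were 2376 probe sets, or 12.8%, and 4 of the 9 genes (Cnp, Fa2h, Sox10 and Myrf). The log2 changes were -0.59 ± 0.11 for Fa2h (adjusted p 0.2811), -0.52 ± 0.24 for Sox10 (adjusted p 0.3847) and -0.52 ± 0.21 for Myrf (adjusted p 0.3648). For Ugt8 it was -0.07 ± 0.28 (adjusted p 0.9164). The 11 cortical neuron markers had a median change of -0.51 in this comparison, near the changes of Sox10 and Myrf, with 0 of 11 called and Slc17a7 at -0.51 (adjusted p 0.4138). Their summed linear signal ran from 8585 to 16180 on isoflurane and 10773 to 15266 on oxygen arrays, and their part in the result was not tested. Without isoflurane array 9 the whole table gave 1086 calls and Fa2h was 1 of them, at -0.66 with an adjusted p of 0.007483.

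The isoflurane effect of these genes was not shown to differ between the sets. In a model with a mean for each group and set, the Pcp2-high effect minus the Pcp2-low effect was 0.07 ± 0.18 for Fa2h (adjusted p 0.8232), 0.38 ± 0.32 for Sox10 (0.4605), 0.16 ± 0.31 for Myrf (0.7764) and 1.00 ± 0.48 for Ugt8 (0.1802). Of the 9 genes 0 passed by limma, against 7.1% of all genes. At an unadjusted p under 0.05 there were 2 of the 9 (Mog and Ugt8), and 27.5% of all probe sets. Among the 14 tested probe sets Mbp 1383479_at had the lowest adjusted p, with a difference of -0.90 ± 0.30 (adjusted p 0.05667). Its change was -0.18 in the Pcp2-high set and 0.72 in the Pcp2-low set. The difference passed in 3 of the 20 fits with 1 array left out. Without isoflurane array 10 the difference for Ugt8 was 1.33 with an adjusted p of 0.01895. That fit gave 4303 calls over the whole table, in place of 1897, the most with any 1 array left out. Without the 4 arrays the difference for Ugt8 was -0.33.

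**Figure D2:**
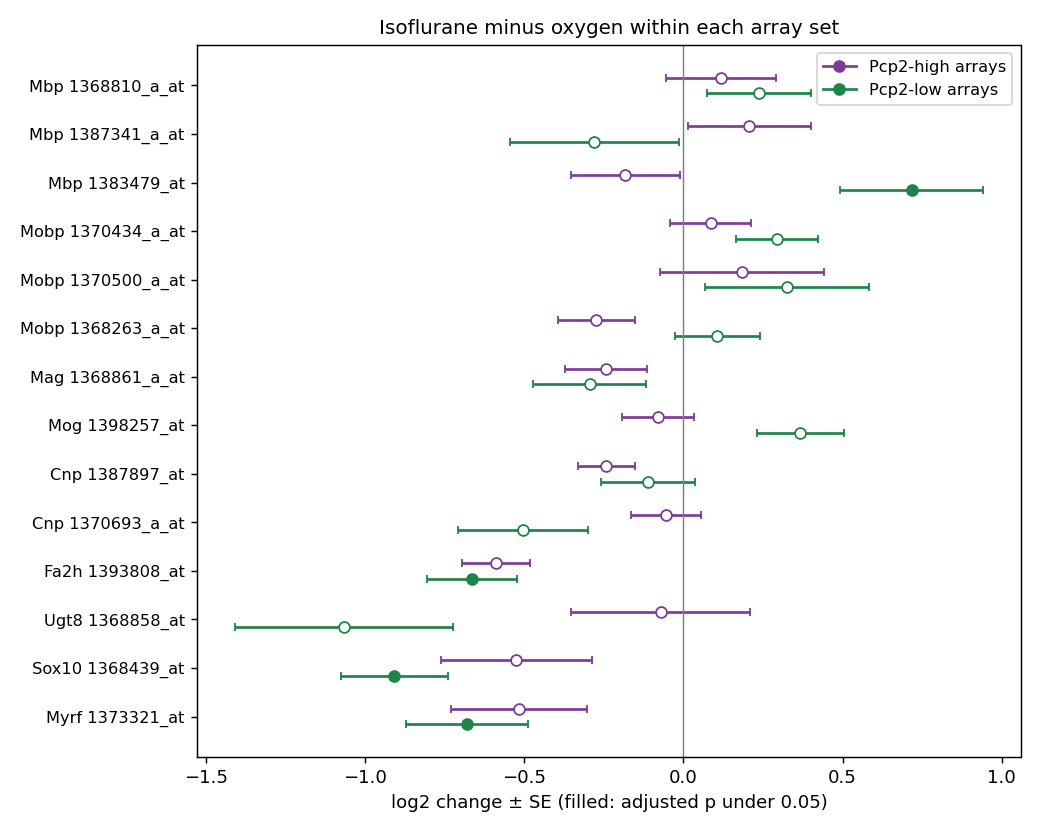
Log2 change, isoflurane minus oxygen, of the 14 tested probe sets within each array set, with the SE from the limma fit as bars. Filled points have an adjusted p under 0.05. Fa2h, Sox10 and Myrf are filled below 0 in the Pcp2-low set and Mbp 1383479_at above 0. No point is filled in the Pcp2-high set.

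The stretches of genome around the transcription starts are shown for 4 genes, Fa2h because it had the lowest p of the 9 genes, Mobp because its window holds the most words bound by the SOX family, and Mag and Cnp because theirs hold both a SOX word and a word bound by MYRF. The table of RefSeq promoters for rat assembly GRCr8 holds windows for 6 of the 9 genes, running from 250 bases before to 50 after the start, and none for Sox10, Mog or Myrf. The array values name no genome build. Each sequence runs 5' to 3' in the gene's own direction, and capitals mark the words ACAAAG or ACAATG (SOX), and CTGGCAC or CTGGTAC (MYRF), searched on both strands without overlap between the families.
Fa2h, chr19:56273431-56273730, minus strand: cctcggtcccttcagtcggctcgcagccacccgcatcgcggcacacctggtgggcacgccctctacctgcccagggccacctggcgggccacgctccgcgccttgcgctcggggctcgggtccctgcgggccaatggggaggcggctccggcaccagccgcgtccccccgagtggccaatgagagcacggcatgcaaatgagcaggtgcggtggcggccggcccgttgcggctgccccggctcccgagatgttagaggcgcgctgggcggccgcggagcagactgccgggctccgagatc
Mobp, chr8:128746982-128747281, plus strand: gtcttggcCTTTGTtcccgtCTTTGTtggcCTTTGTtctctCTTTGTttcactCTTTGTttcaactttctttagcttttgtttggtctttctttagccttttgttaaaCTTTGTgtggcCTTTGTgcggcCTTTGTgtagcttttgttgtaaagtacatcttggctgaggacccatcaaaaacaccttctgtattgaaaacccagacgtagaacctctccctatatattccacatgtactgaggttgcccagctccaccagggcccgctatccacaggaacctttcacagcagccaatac
Mag, chr1:95290995-95291294, minus strand: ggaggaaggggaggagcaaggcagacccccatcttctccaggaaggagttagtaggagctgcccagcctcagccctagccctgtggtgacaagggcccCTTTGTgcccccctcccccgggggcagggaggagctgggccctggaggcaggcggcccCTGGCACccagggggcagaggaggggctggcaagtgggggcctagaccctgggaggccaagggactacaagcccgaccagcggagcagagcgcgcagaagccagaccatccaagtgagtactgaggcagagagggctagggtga
Cnp, chr10:86011254-86011553, plus strand: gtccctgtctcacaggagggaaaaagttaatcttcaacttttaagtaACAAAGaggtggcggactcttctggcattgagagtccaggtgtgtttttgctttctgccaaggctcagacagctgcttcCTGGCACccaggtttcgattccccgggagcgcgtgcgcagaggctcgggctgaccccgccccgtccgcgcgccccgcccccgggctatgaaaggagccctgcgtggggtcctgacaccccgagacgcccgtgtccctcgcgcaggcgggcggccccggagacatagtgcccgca
The Mobp window holds 8 copies of ACAAAG, all on the opposite strand at positions -242 to -120 from the start, read as CTTTGT in the line above. Mag holds 1 SOX word and 1 MYRF word, and so does Cnp. Mbp, whose sequence is not printed, holds 3 SOX words in 1 of its windows. A SOX word thus occurs in 4 of the 7 windows of these genes, against 29.1% of 33469 rat promoter windows, and a MYRF word in 2 of the 7, against 6.78%. Neither Fa2h nor Ugt8 holds any of these words in its window, where GC content is 74.3% in Fa2h and 79.3% in Ugt8, against a median of 51.7% over all windows. A word is a run of letters and not a bound site, and these data do not measure binding.

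Most of these genes were lower on the Pcp2-high arrays than on the Pcp2-low arrays of the same group. In isoflurane rats limma called 7 of the 9 genes lower and 1, Ugt8, higher, with a median change of -0.53 against 0.09 over all probe sets; over all genes 23.6% were lower and 30.6% higher. In oxygen rats 7 were lower and 0 higher, with a median change of -0.43 against 0.10; over all genes 22% were lower and 24.2% higher. Calls were thus common among all genes in both comparisons. In isoflurane rats Sox10 lost the call with arrays centred on their medians (-0.49, adjusted p 0.05137). In oxygen rats 5 of the 9 were lower under quantile normalization, as Mobp (-0.26, adjusted p 0.05814) and Fa2h (-0.26, adjusted p 0.06514) lost theirs. With the mean of a gene's probe sets 5 were again lower, as Mobp (-0.21, adjusted p 0.2526) and Cnp (-0.23, adjusted p 0.0838) lost theirs, and in isoflurane rats Cnp then had -0.07 (adjusted p 0.6459).

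Myrf and Sox10, the transcription factors, were lower on the Pcp2-high arrays in both groups. In isoflurane rats the changes were -0.82 ± 0.22 for Myrf (adjusted p 0.008174) and -0.55 ± 0.20 for Sox10 (adjusted p 0.03043), and the Sox10 call was lost without isoflurane array 1, 2, 3, 6, 7 or 8 (values -0.54 to -0.45). In oxygen rats these genes had the largest differences of the 9. Myrf averaged 9.18 ± 0.38 on the 6 Pcp2-high oxygen arrays and 10.16 ± 0.26 on the 4 Pcp2-low oxygen arrays (SD), a change of -0.98 ± 0.19 with an adjusted p of 0.001268. Sox10 averaged 8.87 ± 0.46 on the Pcp2-high and 9.81 ± 0.35 on the Pcp2-low oxygen arrays, a change of -0.93 ± 0.23 with an adjusted p of 0.005708. For Myrf the arrays of the sets did not overlap, which holds with the Pcp2-high set lower for 14.7% of probe sets.

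Among the sheath proteins, Mog averaged 10.57 ± 0.17 on the 5 Pcp2-high isoflurane arrays and 11.48 ± 0.29 on the 5 Pcp2-low isoflurane arrays, a change of -0.91 ± 0.14 (adjusted p 0.0001472). In oxygen rats Mog averaged 10.65 ± 0.20 on the Pcp2-high arrays and 11.11 ± 0.06 on the Pcp2-low arrays, a change of -0.46 ± 0.11 (adjusted p 0.004216). The sets did not overlap in either group for Mog, in oxygen rats for Mag, and in isoflurane rats for Mobp 1370434_a_at and Cnp 1387897_at. With the Pcp2-high set lower, this holds for 16.2% of probe sets in isoflurane rats and 14.7% in oxygen rats. Mag changed by -0.53 ± 0.18 in isoflurane rats (adjusted p 0.0229) and by -0.59 ± 0.12 in oxygen rats (adjusted p 0.001846). Mobp changed by -0.64 ± 0.11 in isoflurane rats (adjusted p 0.0002931) and by -0.43 ± 0.15 in oxygen rats (adjusted p 0.03405). Cnp changed by -0.52 ± 0.10 in isoflurane rats (adjusted p 0.001144) and by -0.39 ± 0.13 in oxygen rats (adjusted p 0.02625). Mbp passed in isoflurane rats at -0.40 ± 0.14 (adjusted p 0.02651), and in oxygen rats it had -0.28 ± 0.20 (adjusted p 0.268).

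The lipid enzymes followed another order. Fa2h had -0.20 ± 0.14 in isoflurane rats (adjusted p 0.2382) and was lower in oxygen rats at -0.28 ± 0.10 (adjusted p 0.03848), a call lost with any 1 oxygen array left out other than oxygen array 8. Ugt8 was higher on the Pcp2-high isoflurane arrays, which averaged 9.75 ± 0.27 against 8.59 ± 0.79 on the Pcp2-low isoflurane arrays, a change of 1.16 ± 0.31 (adjusted p 0.007519). In oxygen rats Ugt8 had 0.16 ± 0.31 (adjusted p 0.6964), and without the 4 arrays the isoflurane difference was -0.17 (adjusted p 0.7119). Without those 4 arrays 1 Pcp2-low isoflurane array is left, assumed to vary like the Pcp2-high ones, and 3 of the 9 genes passed, namely Mog (-0.69), Cnp (-0.51) and Fa2h (-0.67).

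Single arrays also decided other calls between the sets. In isoflurane rats Mag was lost without isoflurane array 1, 2, 3 or 6 (-0.51 to -0.44), and Mbp without isoflurane array 2, 4 or 6 (-0.40 to -0.36). In oxygen rats Cnp was lost without oxygen array 2, 3 or 7 (-0.35 to -0.29), and Mobp without oxygen array 2, 3, 5, 7 or 10 (-0.40 to -0.34). The calls of Mog and Myrf in both groups, and of Mobp and Cnp in isoflurane rats, were kept with any 1 array left out. Markers of other cells moved with the sets as well: 8 of 9 tested microglia markers were lower on the Pcp2-high arrays in each group, and so were 7 of 7 striatal markers, and their part in the result was not tested. The summed linear signal of the microglia markers ran from 2906 to 3665 on Pcp2-high isoflurane arrays and 2757 to 4154 on Pcp2-high oxygen arrays, against 4998 to 7469 on Pcp2-low isoflurane arrays and 5652 to 7582 on Pcp2-low oxygen arrays.

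**Figure D3:**
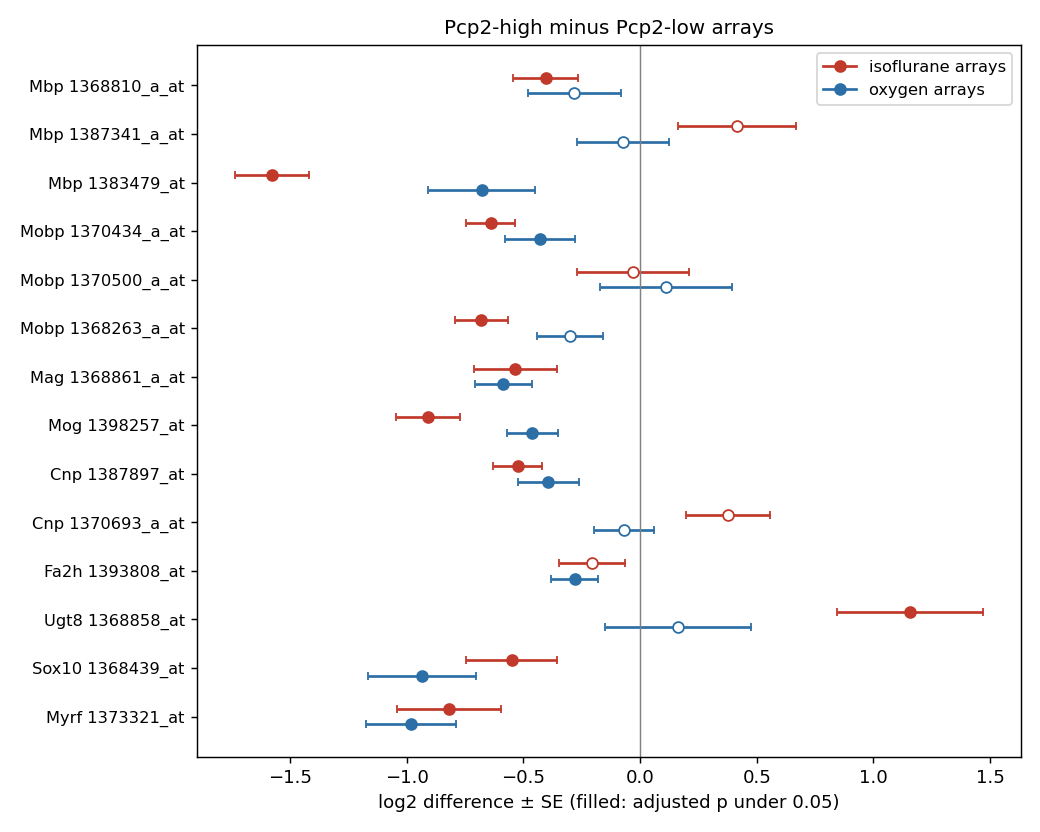
Log2 difference, Pcp2-high minus Pcp2-low arrays, of the 14 tested probe sets in isoflurane rats and in oxygen rats, with the SE as bars. Filled points have an adjusted p under 0.05. Mog, Myrf, Sox10, Mag, Cnp 1387897_at, Mobp 1370434_a_at and Mbp 1383479_at are filled below 0 in both groups, and Ugt8 is filled above 0 in isoflurane rats.

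Probe sets of the same gene did not always go the same way. Mbp was read by 1368810_a_at, 1387341_a_at and 1383479_at. In the Pcp2-low set 1383479_at had a log2 signal of 10.72, 10.76, 10.38, 11.13 and 10.26 on isoflurane arrays 2, 4, 5, 6 and 10, against 10.42, 10.07, 9.93 and 9.31 on oxygen arrays 1 to 4. This probe set was higher under isoflurane there at 0.72 ± 0.22 (adjusted p 0.04668), as were 11.2% of all probe sets, a call lost with arrays centred on their medians (0.51, adjusted p 0.07131) and without isoflurane array 2, 4, 5 or 6 or oxygen array 2, 3 or 4 (0.51 to 0.78). On the same arrays 1387341_a_at read 13.34, 12.82, 12.26, 12.99 and 13.78 for isoflurane, against 13.49, 13.01, 13.70 and 13.06 for oxygen, a change of -0.28 (adjusted p 0.4788). Isoflurane arrays 4, 5 and 6 thus lay below every oxygen array of the set in 1387341_a_at, and isoflurane arrays 2, 4 and 6 above every one in 1383479_at.

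Probe sets also differed in the contrast between the sets. For 1383479_at the Pcp2-high minus Pcp2-low difference in isoflurane rats was -1.58 ± 0.16 (adjusted p 5.512e-06), for 1368810_a_at it was -0.40 ± 0.14 (adjusted p 0.02651) and for 1387341_a_at it was 0.41 (adjusted p 0.1823), or -0.33 without isoflurane arrays 2, 4, 5 and 6. In oxygen rats the 3 probe sets lay on the same side, at -0.68 ± 0.23 for 1383479_at (adjusted p 0.02923), -0.28 for 1368810_a_at (adjusted p 0.268) and -0.07 for 1387341_a_at (adjusted p 0.7867). Mobp 1370434_a_at and 1368263_a_at were both lower in the Pcp2-high isoflurane arrays, at -0.64 ± 0.11 and -0.68 ± 0.11, and Mobp 1370500_a_at was not shown to differ (-0.03, adjusted p 0.9206). In oxygen rats Mobp 1370434_a_at was lower at -0.43 ± 0.15, while 1368263_a_at had -0.30 (adjusted p 0.1) and 1370500_a_at had 0.11 (adjusted p 0.7731). In isoflurane rats Cnp 1387897_at was lower at -0.52 ± 0.10, and Cnp 1370693_a_at had 0.38 ± 0.18 (adjusted p 0.09271), or -0.14 without the 4 arrays. In oxygen rats Cnp 1387897_at was lower at -0.39 ± 0.13 and 1370693_a_at had -0.07 (adjusted p 0.6824). After the mean of each group and set was taken out, the Pearson r between probe sets of a gene over the 20 arrays was 0.20 to 0.66 for Mbp, 0.01 to 0.64 for Mobp and 0.37 for Cnp, given as a description of arrays that share a scaling step.

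**Figure D4:**
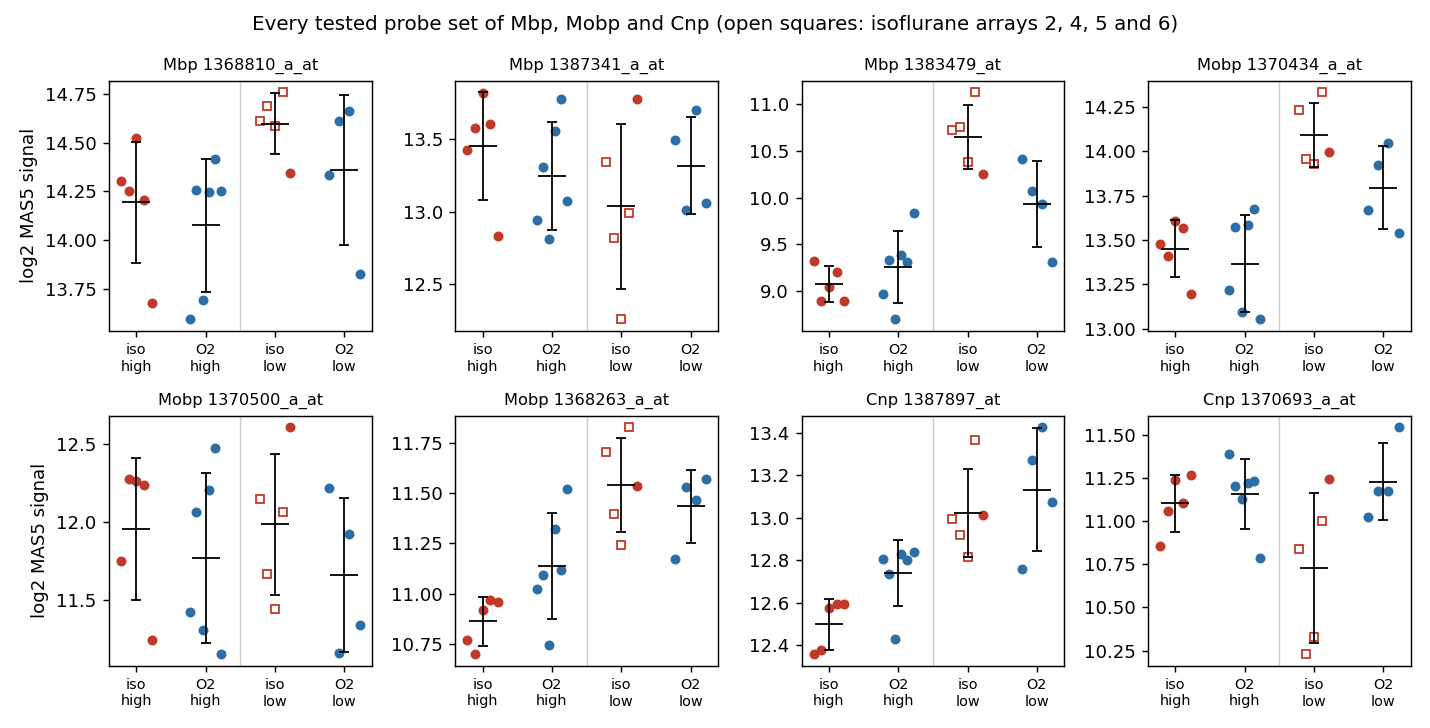
Log2 signal of each probe set of Mbp, Mobp and Cnp on each of the 20 arrays, by array set and group, with isoflurane left of oxygen; open squares mark isoflurane arrays 2, 4, 5 and 6. Of the 4 squares, 3 lie above the oxygen arrays of their set for Mbp 1383479_at and 3 below them for Mbp 1387341_a_at.

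Among the 9 genes, after the same centring, the pair with the highest Pearson r over the 20 arrays was Sox10 and Myrf (0.86), followed by Mobp and Mog (0.79) and Mbp and Mobp (0.72). The lowest values were those of Mbp and Sox10 (-0.61) and Mobp and Sox10 (-0.55). Mag went with Myrf (0.66), Fa2h (0.64) and Sox10 (0.60) more than with the other sheath proteins Cnp (0.47) and Mog (0.24). Cnp gave 0.53 with both Mobp and Mog and 0.45 with Myrf, and Fa2h gave 0.56 with Ugt8 and 0.48 with Myrf. These values describe arrays that share a scaling step and carry no test. The genes outside the 9 whose centred values were most like the mean of the 9 were Cers2 (r 0.84), Ddr1 (0.84), Gal3st1 (0.76), Bcas1 (0.75), Map3k20 (0.75), Gamt (0.74), Antkmt (0.74) and Apoc1 (0.73).

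Other genes of myelin were tested in lists drawn up with the earlier results of these data known. Of 22 tested genes for other myelin proteins, 2 were lower under isoflurane over all 20 arrays and 0 higher, with a median change of -0.03. They were Gpr37, a receptor of oligodendrocytes (-0.33 ± 0.08, adjusted p 0.02101), and Sirt2, a deacetylase found in myelin (-0.34 ± 0.09, adjusted p 0.02517), and both were lost without oxygen array 4 (-0.30 each). Of 19 tested enzymes of sphingolipids, 1 was lower, Cers2, the synthase of very long chain ceramides (-0.37 ± 0.07, adjusted p 0.007826), and all 10 arrays of isoflurane rats were under their set's oxygen mean. Of 20 tested genes of cholesterol synthesis 4 were lower and 0 higher, with a median change of -0.22. These were Sqle, an early enzyme of the sterol branch (-0.49, adjusted p 0.01718), Scap, the escort of SREBP proteins (-0.48, adjusted p 0.01838), Srebf2, which encodes the sterol-responsive factor SREBP2 (-0.61, adjusted p 0.0236), and Insig1, a sterol-sensing retention protein (-0.17, adjusted p 0.03545). The shares of these lists can be read against 5.87% of all genes lower.

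Of 15 tested other transcription factors and cofactors of the lineage, 1 was lower, the arginine methyltransferase Carm1 (-0.375 ± 0.106, adjusted p 0.03783). Of 15 tested enzymes and transport genes of mature oligodendrocytes, 0 were lower and 1 was higher, Dnm3, a dynamin (1.00 ± 0.23, adjusted p 0.01718), which neurons also express. Of 12 tested genes of the axon-glia junction, 1 was lower, Cntnap1, a paranodal protein on the axonal side (-0.71 ± 0.21, adjusted p 0.04376). Of 13 tested genes of precursors and newly formed oligodendrocytes 2 were lower, Bcan, a matrix proteoglycan (-0.58, adjusted p 0.007059), and C1ql1 (-0.48, adjusted p 0.0367). The calls of Cers2, Sqle, Scap, Dnm3 and Bcan were kept with any 1 array left out, and Srebf2 was lost without oxygen array 4 (-0.55). With the mean of a gene's probe sets Scap lost its call (-0.21, adjusted p 0.2546) and Dnm3 had 0.53 (adjusted p 0.02391). Of the 20 fits with 1 array left out, C1ql1 was lost in 11, Carm1 in 12, Insig1 in 12 and Cntnap1 in 15. Without isoflurane arrays 2, 4, 5 and 6 none of these genes passed, as limma then called 0 of all probe sets.

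Markers of other cells were tested beside them. Under isoflurane 1 of 13 tested astrocyte markers was lower (Atp1b2, -0.38, adjusted p 0.009853), 1 of 9 microglia markers (Csf1r, -0.43, adjusted p 0.03463), 1 of 11 cortical neuron markers (Slc17a7, -0.70, adjusted p 0.02736) and 1 of 7 hippocampal and thalamic markers (Wfs1, -0.70, adjusted p 0.02459). Slc17a7 was lost without oxygen array 4 (-0.60) or isoflurane array 5 (-0.68), Wfs1 without oxygen array 4 (-0.64) and Csf1r in 12 of the 20 fits with 1 array left out. None of the 12 cerebellar, 7 striatal, 8 vascular or 4 choroid plexus markers passed by limma in that fit over all 20 arrays. The lowest adjusted p in those lists was 0.1106 for Pcp4, 0.1514 for Ppp1r1b, 0.05424 for Islr and 0.2135 for Ttr. With the mean of a gene's probe sets Islr passed (-0.71, adjusted p 0.04113) and Atp1b2 had -1.16 (adjusted p 0.01983). The 4 Schwann cell markers on the array were all below the filter, with median summed linear signals of 143 on Pcp2-high isoflurane and 152 on Pcp2-high oxygen arrays, and of 299 on Pcp2-low isoflurane and 484 on Pcp2-low oxygen arrays.

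Within the Pcp2-low set, where Fa2h, Sox10 and Myrf were called lower, some markers of other cells were called as well. Their shares can be read against 9.04% of all genes lower and 6.22% higher in this set. Of 13 astrocyte markers 3 were lower under isoflurane and 0 higher, namely Gfap, an intermediate filament (-0.78, adjusted p 0.0132), Atp1b2 (-0.54, adjusted p 0.01349) and Aldh1l1 (-0.51, adjusted p 0.04411). Of 8 vascular markers 2 were lower, Islr (-1.28, adjusted p 0.007089) and Acta2 (-0.60, adjusted p 0.04227), and 1 was higher, Rgs5 (1.47, adjusted p 0.01771). Of 4 choroid plexus markers 1 was lower, Ttr, which encodes transthyretin (-2.97, adjusted p 0.0179). Of 9 microglia markers 2 were lower, and of 11 cortical neuron markers 2 were lower and 1 higher. Of 7 hippocampal and thalamic markers 1 was lower. Of 12 cerebellar and 7 striatal markers 0 were called in either direction. Without the 4 arrays that stood apart 1 isoflurane array is left in this set, so that fit cannot decide whether these calls rest on them. The summed linear signal of the astrocyte markers ran from 85569 to 104171 on isoflurane and 80867 to 108312 on oxygen arrays of the set. That of the vascular markers ran from 3686 to 6351 on isoflurane and 4084 to 4588 on oxygen arrays, and that of the choroid plexus markers from 3502 to 4746 on isoflurane and 3043 to 16697 on oxygen arrays. The groups overlapped in each of these sums, and the part of these cells in the calls of the 9 genes was not tested.

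Other myelin genes were also lower in the Pcp2-high set. In isoflurane rats 15 of 22 tested other myelin protein genes were lower and 2 higher, with a median change of -0.49. Over all genes 23.6% were lower and 30.6% higher. In oxygen rats 16 were lower and 2 higher, with a median of -0.59, and over all genes 22% were lower and 24.2% higher. In oxygen rats Mal, a proteolipid of compact myelin, changed by -1.07 ± 0.16 (adjusted p 0.0001558) and Opalin, a glycoprotein of oligodendrocytes, by -1.07 ± 0.18 (adjusted p 0.0003439). Septin4 was among those that went the other way, at 0.87 ± 0.11 (adjusted p 4.457e-05). These 3 genes were chosen after their values were seen. Of 13 tested precursor genes 6 were lower and 1 higher in each group, to be read against the same shares of all genes.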

How the data were processed

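Gene signals were measured in tissue labelled brain cortex from 10 isoflurane and 10 oxygen rats. The deposited table holds a linear intensity for each probe set. The submitters' processing notes name MAS5 and Affymetrix Expression Console, and their versions and settings are not given in the sources used here. After trimming 2% from each end the mean was 500.12 to 500.16 on each array, so changes are relative to an array's average transcript. Array medians on the log2 scale lay between 7.20 and 7.57. Detection calls were not used. The number of arrays limits the precision.

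Of 31099 probe sets, 57 were controls. Values under 1 (2079) were raised to 1 and log2 was taken from the deposited signal. Probe sets with a mean above the 40th percentile (6.62) were tested. The platform annotation gave 1 gene symbol to 20826 probe sets, several to 436 and none to 9780; only the first kind was named. Of 237 listed symbols, 29 matched no probe set.

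Comparisons were made in R 4.3.3 with limma 3.58.1, using moderated tests whose prior variance follows the mean signal, all two-sided, with Benjamini-Hochberg adjustment over the 18625 probe sets and a threshold of 0.05; the SE is the moderated one. The fit was tested on simulated data. The rest ran in Python 3.11.15 (numpy 2.4.6, pandas 2.3.3, matplotlib 3.10.9). The titles of the samples gave the groups and replicate numbers, and Pcp2 gave the sets. The genes, lists, sets, tests and alternatives were chosen with earlier results of these data known. From each list the text names, for isoflurane over all 20 arrays, the genes of lowest p past the threshold (up to 5 in myelin, lipid and oligodendrocyte lists, 3 in others), or the lowest alone where none passed, and the 8 genes most like the mean of the 9. Alternatives were other scalings, floors, filters, fits and covariates, and each array left out in turn.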

Additional observations from a re-analysis of the deposited data

Results flagged for a closer look

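Of 56 groups of 4 to 6 arrays checked for an array far from the others, 2 held one, and chance alone gives about 1 in 20. Cnp 1387897_at had a log2 signal of 12.43 on oxygen array 7, against 12.73 to 12.84 on the other Pcp2-high oxygen arrays. Ugt8 1368858_at had 8.44 on oxygen array 10, against 9.88 to 10.36 on the other Pcp2-high oxygen arrays.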

How the results depend on the processing

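Over the single probe sets, 1902 results under other settings stayed on their side of the threshold, 206 lost the call, 34 gained it and 46 turned their sign. The number of the 9 genes called over all 20 arrays was 3. It was 0 without isoflurane arrays 2, 4, 5 and 6, 1 with no array set term and 1 with the replicate number as a block, and it ran from 2 to 4 with each array left out in turn. Over the whole table those settings gave 0, 74 and 29 probe sets in place of 1372, and leaving out single arrays gave 480 to 2938. With no array set term Fa2h kept its call (-0.60, adjusted p 0.02762), and Sox10 (-0.62, adjusted p 0.1882) and Myrf (-0.50, adjusted p 0.3397) lost theirs. With the replicate block Fa2h had -0.64 (adjusted p 0.03884), Sox10 -0.68 (0.09675) and Myrf -0.59 (0.09968). The correlation of the deviations of same-numbered arrays ran from -0.48 to 0.39. With no value for differently numbered arrays beside it, this range cannot decide whether the numbers pair the samples. The cause of these losses was not tested.

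Within the Pcp2-high arrays the count ran from 0 to 1 with single arrays left out. Within the Pcp2-low arrays it was 3, with 0 without the 4 arrays, 5 in the 4 means model and 2 to 5 with single arrays left out; the whole table gave 3469, and 5249 with arrays centred on their medians. For the difference between sets the count ran from 0 to 1, and the whole table gave 1897, 3902 with centred arrays, 1037 with the 60th percentile filter and 13 without the 4 arrays. Between the sets the count was 8 in isoflurane rats, with 3 without the 4 arrays (3276 over the whole table, against 10314) and 5 to 8 on leaving out single arrays, and 7 in oxygen rats, with 4 to 7 on leaving out single arrays. Of the calls over all 20 arrays 65% were lower, and 79.4% with centred arrays. Within the Pcp2-low arrays the share was 39.8%, and 72.1% with centred arrays, which moved the median of all probe sets to -0.21. For the difference between sets it was 74.7%, with 63.5% under quantile normalization and 27.1% with centred arrays (median 0.25). In oxygen rats it was 40.8% and 58.6% (median 0.10 and -0.09).

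Signs that turned were as follows, where no value passed the test. Over all 20 arrays Mbp 1368810_a_at was at 0.00 (-0.0033) under quantile normalization, and Mbp 1387341_a_at was at 0.11 with the 3'/5' ratio as a covariate and ran from -0.077 to 0.084 with single arrays left out. Without the 4 arrays Mbp 1387341_a_at was at 0.26, Mbp 1383479_at at -0.068, Mog at -0.028 and Ugt8 at 0.0033. Within the Pcp2-high arrays quantile normalization gave -0.049 for Mbp 1368810_a_at and -0.053 for Mobp 1370434_a_at, averaging a gene's probe sets gave -0.0012 for Mobp, and leaving out single arrays gave -0.35 to 0.042 for Ugt8 and -0.13 to 0.0076 for Cnp 1370693_a_at. Within the Pcp2-low arrays centring gave -0.10 for Mobp 1368263_a_at, and leaving out the 4 arrays gave -0.012 for Mbp 1368810_a_at, 0.46 for Mbp 1387341_a_at, 0.015 for Cnp 1370693_a_at and 0.26 for Ugt8. For the difference between sets, leaving out the 4 arrays gave -0.40 for Fa2h, -0.33 for Ugt8 and -0.25 for Myrf. Between the sets in oxygen rats quantile normalization gave 0.082 for Mbp 1387341_a_at, centring gave -0.073 for Mobp 1370500_a_at and -0.022 for Ugt8, and single arrays left out gave -0.055 to 0.30 for Mobp 1370500_a_at, -0.18 to 0.055 for Mbp 1387341_a_at and -0.14 to 0.035 for Cnp 1370693_a_at. In isoflurane rats centring gave 0.029 for Mobp 1370500_a_at, leaving out the 4 arrays gave -0.33 for Mbp 1387341_a_at, -0.14 for Cnp 1370693_a_at and -0.17 for Ugt8, and single arrays left out gave -0.17 to 0.15 for Mobp 1370500_a_at.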
